A study of Zea mays with 18 samples.

Results

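The first day after pollination was followed in the maize inbred B73 by setting endosperm of 1 day after pollination (DAP) against the unfertilized central cell of 0 DAP, with 3 libraries of each. The genes described are those with at least 1 CPM (counts scaled to a common library size) in at least 3 of these 6 libraries, which held for 27169 of the 38300 genes in the deposited table (70.94%). Of them 20095 reached 1 CPM in all 6 libraries. A further 552 reached it in all 3 libraries of 1 DAP and none of 0 DAP, and 543 in all 3 of 0 DAP and none of 1 DAP. The 2336 genes just inside the limit, with exactly 3 libraries at 1 CPM, had a median mean level of 1.15 CPM, and the 2121 just outside it, with 2 such libraries, had 0.849 CPM.

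The central cell is the large cell of the embryo sac that fuses with a sperm cell to found the endosperm, the tissue that feeds the embryo. In cereals the fused nucleus then divides without cell walls, so that the young endosperm is a coenocyte of many nuclei in shared cytoplasm, and walls form only later. Among grasses this early phase is known for rapid, synchronous rounds of nuclear division.

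Plants were inbred B73 grown in a greenhouse, and no genotype or treatment other than pollination separated the groups. Ears were unfertilized or self-pollinated, per the labels, which do not state the time between pollination and fertilization. Tissue was cut by laser from sections, and each library pooled several kernels of a single ear, with 3 ears for each stage. The limma p-values rest on the spread between libraries of the same group, taken over all 18 libraries of the series and not over these 6 alone. The captured RNA was amplified before sequencing, and for both stages its amount was read from the 18S ribosomal band. Reads copied from amplified cDNA are not independent molecules. In such tissue samples, a lower level can come from fewer cells or nuclei of a kind or from less RNA in each, and these cannot be told apart.

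Recovered reads ran to 7688120, 63765568 and 54000646 in replicates 1, 2 and 3 of 1 DAP, and to 76074658, 78713950 and 44250242 in those of 0 DAP. In replicate 1 of 1 DAP a single read was worth 0.112 CPM, against 0.0124 to 0.0244 CPM in the other 5 libraries. On the deposited scale, replicates 1, 2 and 3 of 1 DAP summed to 857516, 919177 and 979938 CPM. Those of 0 DAP summed to 1.05371e+06, 973716 and 1.07846e+06 CPM. Genes at 1 CPM numbered 25904 to 25925 per library at 1 DAP and 25565 to 26711 at 0 DAP. On log2(CPM + 1), Pearson r across genes was 0.919 to 0.973 between libraries of 1 DAP, 0.919 to 0.961 between those of 0 DAP, and 0.830 to 0.884 between stages. The first principal component of the 6 libraries held 55.5% of the variance and separated the stages. The second held 26.2% and set both replicate 1 libraries apart from replicates 2 and 3.

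The labelled tissues were checked against markers. The embryo-sac genes found (6 models for 8 names: es1, es2, es4, EBE-1, EBE-2 and Ea1) summed to 117.9 to 190.2 CPM in the 1 DAP libraries, against 466 to 1172 CPM in the 0 DAP libraries. The young endosperm genes (5 models for 6 names: fie1, mez1, MEG1, Yucca3 and INCW2) summed to 789 to 1096 CPM at 1 DAP, against 43.5 to 71.4 CPM at 0 DAP, with Yucca3 giving most of the sum at 1 DAP and mez1 most of it at 0 DAP. mez1 had 52.9, 48.6 and 51.2 CPM at 1 DAP, against 67.4, 42.5 and 32.6 CPM at 0 DAP, so the difference between the sums came from Yucca3 and, in small part, fie1. MEG1 was at 0 in all 6 libraries and INCW2 at 0 in the 3 of 1 DAP. The embryo genes (5 models for 6 names: wox2A, HB85, wox9C, lec1 and vp1) summed to 2.23 to 7.99 CPM at 1 DAP and 0.665 to 1.45 CPM at 0 DAP, and all but wox2A stayed under 0.35 CPM in each library. The maternal and green-tissue genes (3 models for 4 names: nuc, PSBQ and cab-m1) summed to 29.3 to 53.3 CPM at 1 DAP and 68.4 to 86.9 CPM at 0 DAP. This last sum was lower in every 1 DAP library than in any 0 DAP library, and its part in the falls given next was not tested. Ea1, a peptide gene of the egg apparatus, had 0, 0.159 and 0.308 CPM at 1 DAP, against 0.734, 2.00 and 2.71 CPM at 0 DAP.

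Between the stages 6937 of the 27169 genes (25.5%) differed at a limma adjusted p below 0.05, of which 3114 (11.5%) were higher and 3823 (14.1%) lower at 1 DAP. The 3 libraries of 1 DAP did not overlap those of 0 DAP in 9844 genes (36.2%). Among the called genes this held for 2954 of the 3114 rises and 3610 of the 3823 falls, so a lack of overlap adds little to a call. Fold changes are on log2(CPM + 1), given with their standard error (SE), and p-values are adjusted over all 31783 genes fitted. Genes that rose had a median log2 change of 1.17 and 2044 of them changed at least 2-fold. Genes that fell had a median size of 1.13, with 2406 at least 2-fold lower. A change of at least 4-fold was called in 876 genes (3.22%), 522 higher (1.92%) and 354 lower (1.30%). An 8-fold change was passed by 145 genes that rose and 72 that fell, and a 32-fold change by 12 and 6. Rising genes had a median level of 13.2 CPM at 1 DAP and 4.33 CPM at 0 DAP, and falling genes of 4.00 CPM at 1 DAP and 11.9 CPM at 0 DAP. Among the 117 genes that averaged at least 1000 CPM, 4.27% were called, and all 5 of these were lower.

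The share of calls that were higher depended on the scaling. It was 44.9% on the deposited scale, 54.8% by edgeR (3025 higher, 11.1%, and 2494 lower, 9.18% of the 27169) and 58.3% after all libraries were rescaled to the same total, which shifted the median log2 change of all genes by 0.134, to 0.07. On the deposited scale that median was -0.07, beside which the list medians are given. Where no member of a list is given as called in a direction, edgeR called 0 as well, DESeq2 called at most 1, and at most 2 members had an unadjusted limma p below 0.05 in that direction. A list count of 1 or 2 changed in many lists when 1 library was left out. Every list count of the reported fit is to be read beside the shares of all genes called, 11.5% higher and 14.1% lower. Counts from the fit with the replicate number as a block are to be read beside its shares, 16.9% higher and 20.9% lower. A count near these shares is no result about its list and serves only to introduce single genes. Across the 17 alternative settings, 1669 rising and 1652 falling genes were called the same way in each that tested them.

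**Figure D1:**
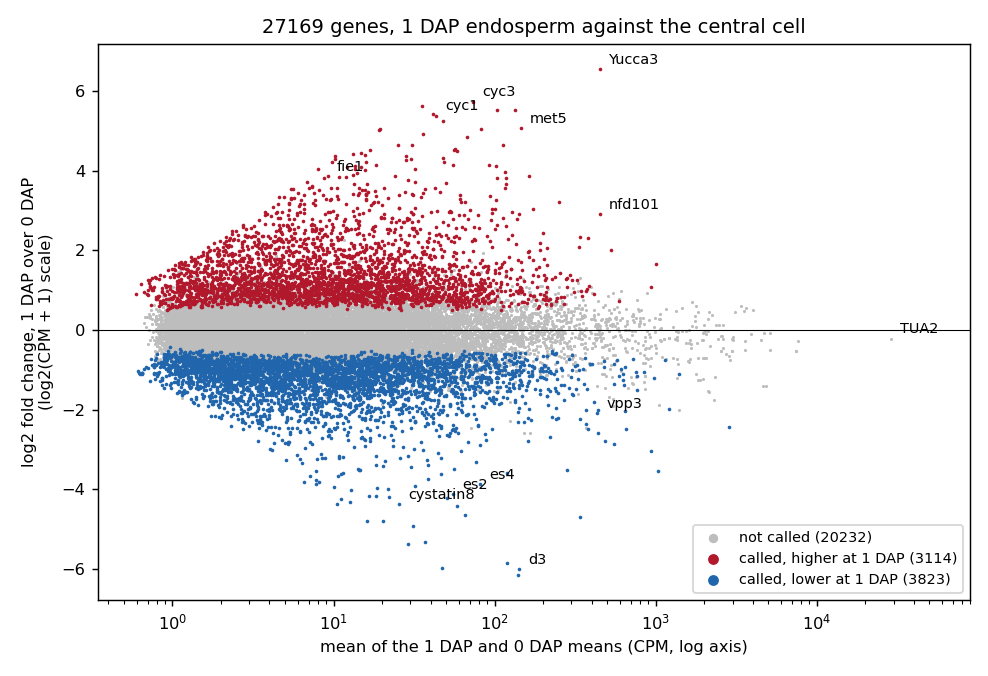
Each point is 1 of the 27169 genes, with the mean of its 2 stage means on the x axis (CPM, log axis) and the log2 fold change of 1 DAP over 0 DAP on the y axis. Red points were called higher (3114), blue points lower (3823) and grey points were not called. Yucca3, cyc3, cyc1 and met5 lie above 5 and d3 lies at -6.01, while TUA2, the most abundant gene, was not called.

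Genes of nuclear division held several of the largest rises. Of 10 measured cyclin and cyclin-kinase genes 7 rose and 0 fell, with a median log2 change of 1.25. The cyclin cyc3 had 162, 122 and 152 CPM at 1 DAP, against 1.5, 1.73 and 2.00 CPM at 0 DAP. Its 3 libraries of 1 DAP lay far above the 3 of 0 DAP, 83.5-fold on the means, a log2 change of 5.73 ± 0.40 SE (limma adjusted p = 3.27e-08). Another cyclin, cyc1, had 48.5, 94.1 and 114 CPM at 1 DAP, against 0.222, 1.11 and 1.93 CPM at 0 DAP (log2 change 5.38 ± 0.74 SE, limma adjusted p = 6.19e-05). The cyclins cyclin9 and cyclin4 were expressed in the central cell already. cyclin9 had 59.8, 64.8 and 72.5 CPM at 1 DAP, against 14.4, 11.3 and 11.6 CPM at 0 DAP, and cyclin4 averaged 109 ± 45.1 CPM at 1 DAP and 17.1 ± 6.22 CPM at 0 DAP (SD, n = 3). Both rises held under all 17 alternatives. The kinase gene cdc2, which encodes the partner of mitotic cyclins, averaged 18.4 CPM at 1 DAP and 11.7 CPM at 0 DAP and was called higher under 12 of the 17 alternatives. wee1, a kinase that restrains cyclin-dependent kinases and is no member of the list (it was chosen after its values were seen), averaged 21.4 ± 2.20 CPM at 1 DAP and 2.23 ± 0.492 CPM at 0 DAP (limma adjusted p = 1.41e-05).

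Kinesins, but not the spindle genes as a group, were called higher in most members. Kinesins move along microtubules, and of 10 measured 6 rose and 0 fell, with a median log2 change of 1.71, against 11.5% of all genes called higher. All 6 held under every alternative. They did not overlap between stages, as did not 2954 of the 3114 rises over all genes. The largest level was that of kin4, with 422, 296 and 316 CPM at 1 DAP, against 76.5, 77.2 and 89.1 CPM at 0 DAP. KIN13 averaged 114 ± 16.4 CPM at 1 DAP and 14.5 ± 2.75 CPM at 0 DAP (SD, n = 3), KIN8 138 ± 18.0 CPM at 1 DAP and 22.8 ± 5.45 CPM at 0 DAP and kin11 94.7 ± 14.5 CPM at 1 DAP and 18.0 ± 3.79 CPM at 0 DAP. Among 7 genes of the spindle, kinetochore and cohesion, 2 rose and 1 fell, and the list median was -0.24. mad2, a component of the checkpoint that delays anaphase, had 117, 219 and 355 CPM at 1 DAP, against 20.7, 22.7 and 36.3 CPM at 0 DAP (log2 change 2.97 ± 0.55 SE, limma adjusted p = 0.000919). The 2 models named cenH3, the histone H3 variant of centromeres, went opposite ways. cenH3 (GRMZM2G158526) had 52.9, 72.1 and 68.8 CPM at 1 DAP, against 7.67, 19.4 and 32.2 CPM at 0 DAP, and cenH3 (GRMZM2G157596) had 21.3, 34.0 and 24.2 CPM at 1 DAP, against 35.2, 64.0 and 58.8 CPM at 0 DAP. The rise of the first was called under 14 of the 17 alternatives and the fall of the second under 10 of the 17, with an edgeR adjusted p of 0.0627. Since the counting of reads shared by close copies is not known, these 2 values may not be independent.

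Tubulins, the subunits of microtubules, were abundant at both stages. TUA2 held the highest mean of any gene, 25570 CPM at 1 DAP and 31860 CPM at 0 DAP, a difference smaller than the spread of its libraries (log2 change -0.22 ± 0.43 SE, limma adjusted p = 0.783). Of 18 tubulin and actin genes 3 rose and 1 fell, with a median of -0.15, beside 11.5% higher and 14.1% lower over all genes. With the replicate number as a block, a fit that called 37.8% of all genes, 3 rose and 5 fell. The beta-tubulin tub5 had 283, 553 and 860.5 CPM at 1 DAP, against 80.1, 76.7 and 169.7 CPM at 0 DAP, and TUB1 averaged 197 ± 93.6 CPM at 1 DAP and 27.8 ± 16.5 CPM at 0 DAP (SD, n = 3). The gamma-tubulin tubg1, which seeds microtubules, had 88.5, 69.1 and 87.0 CPM at 1 DAP, against 49.8, 37.7 and 37.0 CPM at 0 DAP. All 3 rises passed every alternative. Genes of the phragmoplast and cytokinesis, which builds walls between nuclei, gave 0 calls in either direction among 5 measured, with a median log2 change of 0.03; edgeR also called 0, DESeq2 called 1 higher, and 1 gene had an unadjusted limma p below 0.05.

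Genes of DNA replication rose in part. Of 13 measured 7 rose and 0 fell, with a median log2 change of 0.99, and 4 of the 7 were called under every alternative. Without replicate 2 of 0 DAP 4 were called. RNRS1 and RNRS3 encode small subunits of ribonucleotide reductase, the enzyme that makes deoxynucleotides. RNRS1 had 7.25, 19.96 and 24.3 CPM at 1 DAP, against 0.0554, 1.25 and 2.80 CPM at 0 DAP, and RNRS3 had 9.59, 20.5 and 25.4 CPM at 1 DAP, against 0.415, 1.23 and 2.80 CPM at 0 DAP. The sliding-clamp gene pcna2 had 92.1, 161 and 214 CPM at 1 DAP, against 27.4, 45.5 and 71.6 CPM at 0 DAP (log2 change 1.69 ± 0.41 SE, limma adjusted p = 0.00644), and its relative PCNA averaged 73.2 ± 29.5 CPM at 1 DAP and 26.2 ± 2.21 CPM at 0 DAP (SD, n = 3). orc1, which encodes a subunit of the origin recognition complex, averaged 49.2 ± 6.78 CPM at 1 DAP and 24.7 ± 7.54 CPM at 0 DAP and was called under 14 of the 17 alternatives. RNRS2 (12 of the 16) and RNRL2 (11 of the 17) also lost their calls under some of them. RBR2, a retinoblastoma-related gene of the family that restrains entry into S phase, was the 1 of 3 such genes called, and it fell: it had 5.91, 11.0 and 5.93 CPM at 1 DAP, against 30.9, 22.9 and 19.3 CPM at 0 DAP (log2 change -1.58 ± 0.30 SE, limma adjusted p = 0.000994).

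Core histone genes made up the most uniform rise among the lists described. All 7 core histone genes measured under their list names were called higher, against 11.5% of all genes, with a median log2 change of 3.48. Of the 7, 6 did not overlap between stages, beside 2954 of the 3114 rises over all genes. his2b5, a histone H2B gene, had 29.7, 57.4 and 69.1 CPM at 1 DAP, against 2.02, 4.09 and 4.92 CPM at 0 DAP. H3C2, a histone H3 gene, had 15.5, 50.1 and 51.3 CPM at 1 DAP, against 0.596, 2.51 and 3.80 CPM at 0 DAP. The 3 models named H4C13, histone H4 genes that may share reads, averaged 219.8 CPM at 1 DAP and 13.7 CPM at 0 DAP for GRMZM2G084195, 218 CPM at 1 DAP and 18.1 CPM at 0 DAP for GRMZM2G149178 and 169 CPM at 1 DAP and 17.9 CPM at 0 DAP for GRMZM2G181153. The last overlapped between stages and was called under 14 of the 17 alternatives. In both stages these genes were lowest in replicate 1: the median log2 difference of replicate 1 from the other 2 was -1.65 at 1 DAP and -1.36 at 0 DAP. Without all replicate 1 libraries all 7 were still called higher. histone2b1, which the list's name pattern misses, averaged 48.2 ± 17.6 CPM at 1 DAP and 10.0 ± 4.63 CPM at 0 DAP and was chosen after its values were seen.

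Linker histones and high-mobility-group (HMG) proteins, which bind DNA between and around nucleosomes, gave 9 rises and 0 falls among 13 measured, with a median of 1.49. nfd101, an HMG gene, had 410.1, 994 and 962 CPM at 1 DAP, against 49.1, 118 and 155 CPM at 0 DAP (log2 change 2.91 ± 0.56 SE, limma adjusted p = 0.00123). HMG5 had 37.5, 48.5 and 56.5 CPM at 1 DAP, against 3.35, 2.61 and 5.02 CPM at 0 DAP. The linker histone his1a averaged 529.5 ± 199 CPM at 1 DAP and 134 ± 88.5 CPM at 0 DAP (SD, n = 3), and his1 averaged 53.8 ± 17.2 CPM at 1 DAP and 8.58 ± 3.67 CPM at 0 DAP. A total of 5 of the 9 rises, those of HMG5, nfd101, his1, his1a and nfd106, were called under all 17 alternatives, and without replicate 2 or without replicate 3 of 1 DAP 5 were called. The median difference of replicate 1 from the other 2 was -1.0 at 1 DAP and -0.65 at 0 DAP.

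**Figure D2:**
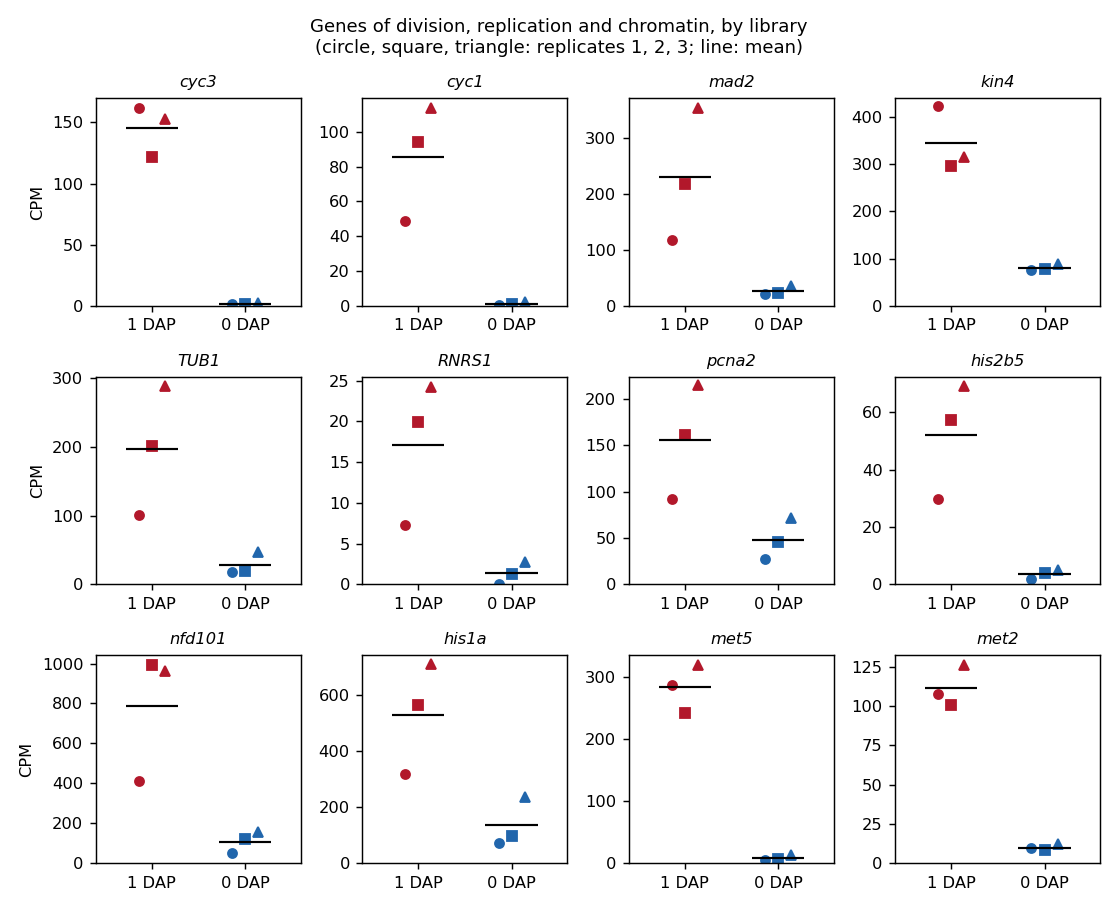
CPM of 12 genes of division, replication and chromatin in each library, 1 DAP on the left and 0 DAP on the right of each panel, with symbols for replicates 1 to 3 and a line at the mean. In every panel all 3 libraries of 1 DAP lie above all 3 of 0 DAP; RNRS1, nfd101 and his1a are lowest in replicate 1 at both stages, and met5 and met2 vary little between replicates at 1 DAP.

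Among 6 genes of DNA methylation and demethylation 3 rose, all of them methyltransferases, and the other 3 were not called. The 3 rises held under every alternative. met5 and met2 are chromomethylases, which keep up methylation outside the CG context. met5 had 287, 242 and 319 CPM at 1 DAP, against 5.30, 6.14 and 12.4 CPM at 0 DAP, 35.6-fold on the means (log2 change 5.06 ± 0.30 SE, limma adjusted p = 5.17e-09). met2 had 108, 101 and 127 CPM at 1 DAP, against 9.25, 8.38 and 11.8 CPM at 0 DAP (log2 change 3.39 ± 0.23 SE, limma adjusted p = 2.88e-08). dmt101 (GRMZM2G334041), of the type that maintains CG methylation, had 287, 227 and 254 CPM at 1 DAP, against 81.7, 60.4 and 54.8 CPM at 0 DAP. Readers of methylation went mostly the other way. Of 10 methyl-CpG-binding protein genes 6 fell and 1 rose, but after rescaling to the same total 3 fell and 2 rose. Without replicate 1 or replicate 3 of 0 DAP, or replicate 2 of 1 DAP, 3 fell. mbd113 had 50.8, 43.9 and 51.3 CPM at 1 DAP, against 188, 102 and 91.2 CPM at 0 DAP and fell under every alternative. The 2 models named mbd101 carried nearly the same values and may share reads. Of 9 small RNA pathway genes 3 fell and 0 rose, with 1 fall after rescaling and 5 under the block. Without replicate 1 or 2 of 0 DAP, or replicate 3 of 1 DAP, 1 fell. rmr2, needed in maize for heritable silencing by small RNAs, had 3.68, 3.26 and 4.34 CPM at 1 DAP, against 32.9, 29.7 and 27.2 CPM at 0 DAP (log2 change -2.70 ± 0.25 SE, limma adjusted p = 7.84e-07). The dicer genes dcl4 (GRMZM2G024466, 10 of the 17) and dcl1 (10 of the 17) lost their calls under some alternatives.

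Of 17 histone modifiers 6 rose and 2 fell, beside 11.5% higher and 14.1% lower over all genes, and the falls lay near that share. edgeR called neither fall, and 3 rises were called without replicate 3 of 0 DAP. The deacetylase HDA108 averaged 25.1 ± 7.63 CPM at 1 DAP and 8.69 ± 0.894 CPM at 0 DAP (SD, n = 3), hda110 89.2 ± 29.7 CPM at 1 DAP and 33.0 ± 7.55 CPM at 0 DAP, and the acetyltransferase hac106 48.8 ± 4.92 CPM at 1 DAP and 19.9 ± 3.48 CPM at 0 DAP. These 3 held under every alternative. Among 9 Polycomb and imprinted genes 2 rose and 2 fell. Polycomb complexes write a repressive histone mark, and fie1 is a subunit gene that is expressed from the maternal copy in endosperm. fie1 had 9.15, 19.9 and 25.6 CPM at 1 DAP, against 0.208, 0.520 and 0 CPM at 0 DAP. The 3 values of 1 DAP stood clear of those of 0 DAP (log2 change 3.86 ± 0.38 SE, limma adjusted p = 1.77e-06). mez2, a gene for a catalytic subunit, fell and had 22.1, 13.2 and 11.4 CPM at 1 DAP, against 39.8, 59.4 and 45.2 CPM at 0 DAP. mez3, of the same family, averaged 6.82 ± 2.55 CPM at 1 DAP and 17.8 ± 4.21 CPM at 0 DAP (SD, n = 3) and was called under 15 of the 17 alternatives. nfc103 averaged 31.0 CPM at 1 DAP and 21.8 CPM at 0 DAP and was called under 10 of the 17. Of 7 chromatin remodelling ATPase genes 1, chb102, was called higher, near the 11.5% of all genes.

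Hormone genes changed in both directions, beside 11.5% called higher and 14.1% lower over all genes. Auxin genes gave 8 rises and 2 falls among 32 measured, with a median of 0.29. edgeR called 0 of the falls. The block gave 10 rises and 6 falls, beside 16.9% higher and 20.9% lower over all genes in that fit. Yucca3, a flavin monooxygenase of auxin synthesis, had 727, 1028 and 913 CPM at 1 DAP, against 3.64, 14.2 and 10.9 CPM at 0 DAP. This was the largest rise on log2(CPM + 1) among the 27169 genes, 6.55 ± 0.79 SE (limma adjusted p = 1.6e-05). On the ratio of the means some genes that were low at 0 DAP rose more, such as GRMZM2G373091 (2346-fold, against 92.9-fold for Yucca3). The auxin response factor ARF13, a DNA-binding regulator, had 241, 210.5 and 196 CPM at 1 DAP, against 38.9, 29.2 and 56.9 CPM at 0 DAP (log2 change 2.39 ± 0.21 SE, limma adjusted p = 6.58e-07). AUX1 (GRMZM2G000158) had 9.81, 10.2 and 7.44 CPM at 1 DAP and no reads in any of the 3 libraries of 0 DAP, so that it was at least 591-fold higher, with the floor of 3 reads over that group. The efflux carrier PIN8 had 1.11, 10.1 and 7.04 CPM at 1 DAP, against 0.859, 0.0247 and 0 CPM at 0 DAP, with its replicate 1 at 1 DAP near the level of 0 DAP. PIN10a, of the same family, averaged 10.9 ± 1.67 CPM at 1 DAP and 34.9 ± 11.8 CPM at 0 DAP (SD, n = 3) and was called lower under 8 of the 17 alternatives.

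Of 22 cytokinin genes 5 rose and 2 fell, with 4 falls under the block, beside 20.9% of all genes lower in that fit. Response regulators of the cytokinin relay accounted for 4 of the rises. RR9 had 26.9, 22.2 and 27.7 CPM at 1 DAP, against 1.47, 1.3 and 4.53 CPM at 0 DAP (log2 change 3.07 ± 0.33 SE, limma adjusted p = 4.14e-06), and RR6 had 3.57, 8.30 and 12.3 CPM at 1 DAP, against 0.0277, 0.0619 and 0.366 CPM at 0 DAP. The regulator crr1 averaged 3.65 ± 2.62 CPM at 1 DAP and 0.265 ± 0.312 CPM at 0 DAP (SD, n = 3). The cytokinin-degrading oxidase cko2 rose and cko3 fell, with 1.74 CPM at 1 DAP and 0.389 CPM at 0 DAP for cko2 and 0.471 CPM at 1 DAP and 3.86 CPM at 0 DAP for cko3. The receptor kinase hk3 averaged 0.403 CPM at 1 DAP and 2.22 CPM at 0 DAP. The gibberellin list held 3 measured genes, and 2 fell: d3, a cytochrome P450 gene of gibberellin synthesis, and CPPS2, a terpene synthase gene. CPPS2 was listed by its symbol, and whether it acts in gibberellin synthesis was not tested. d3 had 2.12, 3.16 and 3.19 CPM at 1 DAP, against 114, 276 and 457 CPM at 0 DAP. This was the largest fall of a named gene on log2(CPM + 1) (log2 change -6.01 ± 0.52 SE, limma adjusted p = 4.6e-07). On the ratio of the means the zein gene gz27 fell further, 119-fold against 100-fold for d3. CPPS2 had 0.223, 0.0865 and 0 CPM at 1 DAP, against 8.56, 6.42 and 5.07 CPM at 0 DAP, and was below 0.5 CPM in every library of 1 DAP.

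Of 16 abscisic acid genes 3 rose and 5 fell, with 1 rise in the 6 libraries alone. The kinases SnRK2.11 and SnRK2.1 both fell. SnRK2.11 averaged 4.96 CPM at 1 DAP and 20.5 CPM at 0 DAP, and SnRK2.1 averaged 0.169 CPM at 1 DAP and 4.02 CPM at 0 DAP. The receptor gene PYL9 rose (6.82 CPM at 1 DAP and 0.882 CPM at 0 DAP), and a relative, PYL11 (1.22 CPM at 1 DAP and 5.34 CPM at 0 DAP, called under 12 of the 16 alternatives), fell. Jasmonate and oxylipin genes gave 4 rises and 3 falls among 18, the falls near the 14.1% of all genes and the rises beside 11.5%. edgeR called 2 rises and 1 fall, the block gave 5 falls, and 2 rises were called without replicate 1 or 2 of 0 DAP or replicate 2 or 3 of 1 DAP. TIFY13 and TIFY27, of the family that holds the jasmonate repressors, rose. TIFY13 averaged 3.09 CPM at 1 DAP and 0.146 CPM at 0 DAP, and TIFY27 averaged 6.12 CPM at 1 DAP and 1.17 CPM at 0 DAP. The lipoxygenase lox12 averaged 0.125 CPM at 1 DAP and 2.94 CPM at 0 DAP and fell under every alternative that held it.

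In the WRKY, NAC, homeobox and bZIP families of regulators most calls were rises. Of 9 WRKY factors 4 rose and 0 fell, with a median of 0.88. WRKY109 (GRMZM5G880069) had 6.13, 13.4 and 14.6 CPM at 1 DAP, against 0.637, 0.866 and 3.80 CPM at 0 DAP. WRKY (GRMZM2G125653) had 2.23, 7.57 and 6.68 CPM at 1 DAP and no reads at 0 DAP. Of 8 NAC factors 3 rose and 0 fell: NAC61 had 12.7, 32.4 and 23.5 CPM at 1 DAP, against 3.23, 4.78 and 7.36 CPM at 0 DAP, NAC12 (GRMZM2G125777) averaged 34.2 CPM at 1 DAP and 16.3 CPM at 0 DAP and NAC131 2.74 CPM at 1 DAP and 0.0327 CPM at 0 DAP. Among 17 homeobox factors 6 rose and 0 fell. Hox1b averaged 32.2 ± 4.92 CPM at 1 DAP and 14.8 ± 3.44 CPM at 0 DAP (SD, n = 3), HB131 6.45 ± 1.17 CPM at 1 DAP and 2.33 ± 0.173 CPM at 0 DAP, and wox2A, a gene active in the young maize embryo, 4.94 ± 3.10 CPM at 1 DAP and 0.815 ± 0.302 CPM at 0 DAP. The call of wox2A held under 15 of the 16 alternatives, and its level at 1 DAP was lowest in replicate 1 (1.67 CPM). Of 27 bZIP factors 10 rose and 1 fell, but 6 rose by edgeR, 5 in the 6 libraries alone, and 6 without replicate 2 of 0 DAP or without replicate 1 or 2 of 1 DAP. bZIP46 had 6.13, 11.6 and 15.2 CPM at 1 DAP, against 0.319, 0.903 and 1.73 CPM at 0 DAP, and bZIP111 averaged 17.3 ± 1.27 CPM at 1 DAP and 4.80 ± 1.72 CPM at 0 DAP (SD, n = 3).

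The calls among bHLH, MADS-box and MYB factors lay near or below the shares of all genes called (11.5% higher and 14.1% lower), so they are given as single genes. Of 12 AP2 and ERF factors 3 rose and 2 fell. EREB171 had 108, 105 and 108 CPM at 1 DAP, against 10.1, 15.0 and 16.3 CPM at 0 DAP (log2 change 2.90 ± 0.27 SE, limma adjusted p = 1.04e-06), with hardly any spread at 1 DAP, while EREB85 fell and had 9.81, 11.4 and 19.5 CPM at 1 DAP, against 43.9, 35.2 and 41.2 CPM at 0 DAP. Of 12 bHLH factors 1 rose and 2 fell, and edgeR called 1 of the falls, bHLH66, which had 20.9, 30.5 and 21.7 CPM at 1 DAP, against 91.6, 107 and 99.8 CPM at 0 DAP (log2 change -2.0 ± 0.21 SE, limma adjusted p = 2.92e-06). Of 22 MADS-box factors 1 rose, MADS71, which averaged 19.5 ± 5.04 CPM at 1 DAP and 6.26 ± 0.516 CPM at 0 DAP (SD, n = 3), and 3 fell, none of which edgeR called, against 5 under the block and 6 without replicate 1 of 0 DAP. Of 19 MYB factors 1 rose and 2 fell, each lost under at least 1 alternative. Of 11 trihelix factors 3 rose, and edgeR called 1, THX25 (22.7 CPM at 1 DAP and 6.68 CPM at 0 DAP). Heat stress factors (7 measured) and NF-Y factors (6 measured) gave 0 calls by limma, edgeR or DESeq2, with 1 rise in each list at an unadjusted limma p below 0.05.

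The protein synthesis machinery showed little that limma could call on the first day. Of 33 core ribosomal protein genes 2 rose and 1 fell, with a median log2 change of 0.43. rpl10 rose and had 99.4, 181 and 195 CPM at 1 DAP, against 35.9, 38 and 31.6 CPM at 0 DAP. arpp2b, an acidic ribosomal protein gene, fell and had 70.05, 178 and 102 CPM at 1 DAP, against 285, 423 and 259 CPM at 0 DAP. Without replicate 1 of 1 DAP 5 rose. With the replicate number as a block 15 rose and 1 fell, and without all replicate 1 libraries 16 rose and 1 fell. In the ribosomal genes the median log2 difference of replicate 1 from the other 2 was -1.47 at 1 DAP and -0.93 at 0 DAP. Of 11 translation factors limma and edgeR called 0, with 1 gene in each direction at an unadjusted limma p below 0.05, while DESeq2 called 1 rise and the block gave 1 rise and 3 falls. Of 9 splicing and RNA-binding genes 3 rose and 0 fell, among them srp32, which had 350.0, 520.3 and 503 CPM at 1 DAP, against 229, 177 and 165 CPM at 0 DAP, and RSZ28, which averaged 79.1 ± 7.46 CPM at 1 DAP and 31.6 ± 8.22 CPM at 0 DAP (SD, n = 3).

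**Figure D3:**
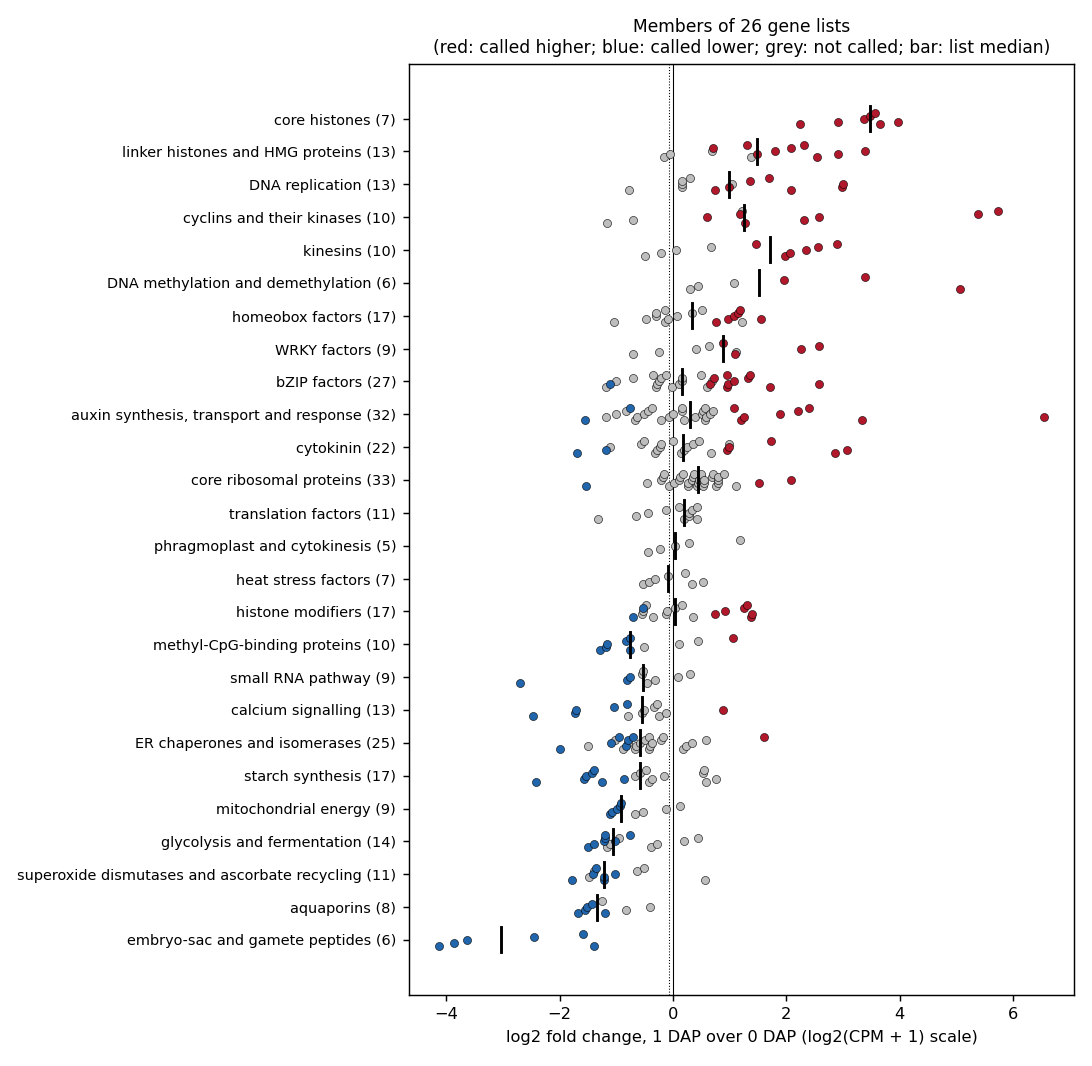
Each point is a gene of the list named on the y axis (number measured in brackets), placed by its log2 fold change of 1 DAP over 0 DAP. Red points were called higher, blue points lower and grey points were not called; bars mark list medians and the dotted line the median of all genes (-0.07). Core histones lie wholly right of 2 and embryo-sac genes wholly left of -1; the ribosomal median is 0.43.

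Embryo-sac peptide genes gave several of the largest falls among named genes. All 6 embryo-sac genes measured were called lower, against 14.1% of all genes, with a median log2 change of -3.04; edgeR called 4. The peptide genes es1, es2 and es4 encode small secreted peptides of the embryo sac. es2 had 4.24, 5.67 and 4.52 CPM at 1 DAP, against 61.4, 139 and 117 CPM at 0 DAP (log2 change -4.13 ± 0.24 SE, limma adjusted p = 4.56e-09), and es4 had 7.47, 10.8 and 8.75 CPM at 1 DAP, against 84.3, 214 and 163 CPM at 0 DAP (log2 change -3.87 ± 0.26 SE, limma adjusted p = 2.72e-08). es1 had 1.90, 11.4 and 5.83 CPM at 1 DAP, against 34.9, 120.5 and 105 CPM at 0 DAP. For all 3 genes every library of 1 DAP lay under every library of 0 DAP. DSUL averaged 2.70 ± 1.84 CPM at 1 DAP and 17.5 ± 4.28 CPM at 0 DAP (SD, n = 3), with an edgeR adjusted p of 0.0692. EBE-1 and EBE-2, which are named for the embryo sac and the basal endosperm, were above 10 CPM in each library of 1 DAP: EBE-1 had 12.6, 20.8 and 15.7 CPM at 1 DAP, against 33.3, 69.4 and 35.9 CPM at 0 DAP, and EBE-2 had 91.7, 141 and 112 CPM at 1 DAP, against 252, 627 and 257 CPM at 0 DAP and was called under 7 of the 17 alternatives (edgeR adjusted p = 0.0561).

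Other large falls among named genes had no common list. cystatin8, a cysteine proteinase inhibitor, had 1.00, 1.63 and 1.34 CPM at 1 DAP, against 28.6, 55.2 and 65.8 CPM at 0 DAP (log2 change -4.38 ± 0.77 SE, limma adjusted p = 0.000599). Of 10 proteinase inhibitors 3 fell and 0 rose, with 1 rise and 6 falls under the block. spds2, a spermidine synthase gene, had 0.223, 2.39 and 0.417 CPM at 1 DAP, against 23.0, 19.3 and 21.4 CPM at 0 DAP. pep (GRMZM2G473001), a phosphoenolpyruvate carboxylase gene, had 5.35, 6.37 and 5.88 CPM at 1 DAP, against 82.3, 56.7 and 76.0 CPM at 0 DAP. thi1-2, of thiamine synthesis, averaged 4.81 ± 2.90 CPM at 1 DAP and 41.9 ± 19.7 CPM at 0 DAP (SD, n = 3), GR2b 0.940 ± 0.458 CPM at 1 DAP and 16.7 ± 2.46 CPM at 0 DAP, and Amy2 6.79 ± 4.49 CPM at 1 DAP and 56.6 ± 27.7 CPM at 0 DAP. The gene aba1 (GRMZM2G136910) had 2.23, 2.19 and 2.03 CPM at 1 DAP, against 15.5, 21.5 and 36.6 CPM at 0 DAP, and ae1 (GRMZM2G039942), which shares its name with a starch gene of the table, averaged 109.8 ± 16.7 CPM at 1 DAP and 859 ± 479 CPM at 0 DAP (SD, n = 3).

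Genes of central carbon metabolism were called lower or not at all. Of 14 glycolysis genes 7 fell and 0 rose, with a median log2 change of -1.06. eno1, an enolase gene, had 536, 567 and 672 CPM at 1 DAP, against 1278, 1297 and 1491 CPM at 0 DAP. The cytosolic glyceraldehyde-3-phosphate dehydrogenase gpc2 had 287, 329 and 425 CPM at 1 DAP, against 781, 748 and 1246 CPM at 0 DAP, and the phosphofructokinase pfk1 averaged 14.5 ± 3.72 CPM at 1 DAP and 35.0 ± 8.41 CPM at 0 DAP (SD, n = 3). After rescaling 5 of the 14 fell. Of 9 mitochondrial energy genes 5 fell and 0 rose, with 3 falls without replicate 1 of 1 DAP and 3 in the 6 libraries alone. mdh4, a malate dehydrogenase gene, had 383, 435 and 408 CPM at 1 DAP, against 827, 920.4 and 700.5 CPM at 0 DAP, and it alone of the 5 held under every alternative. Of 17 starch synthesis genes 7 fell and 0 rose, with a median of -0.58. The model AGP2 (GRMZM2G027955) had 13.1, 11.2 and 9.26 CPM at 1 DAP, against 70.1, 61.8 and 57.9 CPM at 0 DAP (log2 change -2.41 ± 0.32 SE, limma adjusted p = 5.02e-05). The debranching enzyme iso3 averaged 11.2 ± 4.33 CPM at 1 DAP and 32.8 ± 4.90 CPM at 0 DAP (SD, n = 3), and the branching enzyme gene sbe1 (GRMZM2G088753) averaged 19.3 ± 4.82 CPM at 1 DAP and 51.9 ± 10.6 CPM at 0 DAP. ae1 (GRMZM2G032628), another branching enzyme gene, averaged 43.0 ± 2.35 CPM at 1 DAP and 80.2 ± 15.8 CPM at 0 DAP.

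Genes that detoxify oxygen radicals, fold secreted proteins or assimilate nitrogen also gave mostly falls in the reported fit. Of 11 genes of superoxide dismutase and ascorbate recycling 6 fell and 0 rose, with a median of -1.22. The falls called were 2 without replicate 1 of 1 DAP, 2 without replicate 2 of 0 DAP and 1 without replicate 3 of 0 DAP, and 8 under the block. sod3 had 27.4, 38.1 and 34.6 CPM at 1 DAP, against 81.9, 78.4 and 75.4 CPM at 0 DAP and was the 1 of the 6 called under every alternative. The dehydroascorbate reductase dhar3 had 30.0, 45.6 and 51.0 CPM at 1 DAP, against 91.5, 148 and 219.6 CPM at 0 DAP, with replicate 1 lowest at both stages. Of 25 chaperones and isomerases of the endoplasmic reticulum 6 fell and 1 rose, with 11 falls under the block, 4 after rescaling and 3 without replicate 1 of 0 DAP. The calcium-binding chaperone gene crt2 had 401, 574 and 441 CPM at 1 DAP, against 1547, 1468 and 2796 CPM at 0 DAP (log2 change -1.99 ± 0.44 SE, limma adjusted p = 0.00318), and the disulfide isomerase PDIL1-5 was the 1 that rose, with 21.0, 29.6 and 24.7 CPM at 1 DAP, against 5.72, 9.43 and 7.70 CPM at 0 DAP. Of 8 nitrogen assimilation genes 3 fell, all glutamine synthetases, and 0 rose. After rescaling 2 rose and 2 fell, and under the block 2 rose and 3 fell. Without replicate 3 of 0 DAP or without replicate 2 of 1 DAP 1 fell. Gln1-4 had 10.7, 27.9 and 35.0 CPM at 1 DAP, against 92.4, 125 and 230.5 CPM at 0 DAP, gln2 had 2.43 CPM at 1 DAP and 21.0 CPM at 0 DAP on average and gln1-3 17.3 CPM at 1 DAP and 54.1 CPM at 0 DAP, and gln1-3 kept its call under 8 of the 17 alternatives. BM1, a gene of the lignin pathway, had 7.70, 14.8 and 19.3 CPM at 1 DAP, against 56.1, 68.5 and 149.7 CPM at 0 DAP, and PAL1, which opens that pathway, averaged 7.69 ± 0.780 CPM at 1 DAP and 25.8 ± 11.4 CPM at 0 DAP (SD, n = 3).

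Transport and signalling genes changed in both directions, beside 11.5% called higher and 14.1% lower over all genes. Among 6 proton pump and vacuole genes, mha4, a plasma membrane proton pump, rose and had 106, 139.8 and 275 CPM at 1 DAP, against 20.6, 24.5 and 37.6 CPM at 0 DAP. vpp2 and vpp3, which are vacuolar proton-pumping pyrophosphatases, fell. vpp2 had 214, 154 and 181 CPM at 1 DAP, against 801, 595 and 545 CPM at 0 DAP, and vpp3 had 233, 132 and 136 CPM at 1 DAP, against 877, 659 and 565 CPM at 0 DAP (log2 change -2.09 ± 0.24 SE, limma adjusted p = 8.44e-06). The potassium carrier HAK5 had 63.0, 42.1 and 56.5 CPM at 1 DAP, against 7.81, 1.06 and 2.44 CPM at 0 DAP, while the potassium channel gene ZMK1 averaged 1.47 ± 0.586 CPM at 1 DAP and 11.8 ± 6.18 CPM at 0 DAP (SD, n = 3). Of 8 aquaporins limma called 5 lower and 0 higher, with a median of -1.34, but edgeR called 1, and 3 were called without replicate 2 or 3 of 0 DAP or replicate 1 of 1 DAP. The gene edgeR called was SIP1-2 (2.13 CPM at 1 DAP and 7.80 CPM at 0 DAP). The median log2 difference of replicate 1 from the other 2 was negative at both stages (-0.47 at 1 DAP and -1.14 at 0 DAP). IVR1, an invertase gene, had 25.2, 51.0 and 61.5 CPM at 1 DAP, against 4.54, 5.31 and 10.5 CPM at 0 DAP, the single call among 5 sugar transport and invertase genes.

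Of 13 calcium signalling genes 5 fell and 1 rose. The calcium sensor CBL5 had 3.68, 4.67 and 4.41 CPM at 1 DAP, against 26.9, 31.5 and 25.7 CPM at 0 DAP (log2 change -2.47 ± 0.33 SE, limma adjusted p = 5.24e-05), and CBL6 averaged 60.3 ± 2.78 CPM at 1 DAP and 127 ± 21.1 CPM at 0 DAP (SD, n = 3). The 2 models named CPK39, calcium-dependent protein kinases, had nearly the same values and may share reads (1.69 CPM at 1 DAP and 7.85 CPM at 0 DAP for GRMZM2G053868). Annexins, which bind membranes in the presence of calcium, gave 1 rise and 2 falls among 8. Ann9 had 8.59, 28.2 and 37.3 CPM at 1 DAP, against 2.98, 2.68 and 3.95 CPM at 0 DAP, Ann8 had 8.14, 15.0 and 16.9 CPM at 1 DAP, against 62.6, 76.9 and 126 CPM at 0 DAP, and Ann6 averaged 25.2 ± 6.06 CPM at 1 DAP and 112 ± 28.2 CPM at 0 DAP (SD, n = 3). rop6, a small GTPase of the family that organises cell polarity, had 26.3, 41.0 and 69.2 CPM at 1 DAP, against 0.111, 3.14 and 4.63 CPM at 0 DAP (log2 change 3.87 ± 0.53 SE, limma adjusted p = 5.47e-05). The cell number regulator gene CNR2, of a family named for limiting cell number, fell and had 1.45, 3.76 and 3.12 CPM at 1 DAP, against 7.78, 20.8 and 31.5 CPM at 0 DAP.

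**Figure D4:**
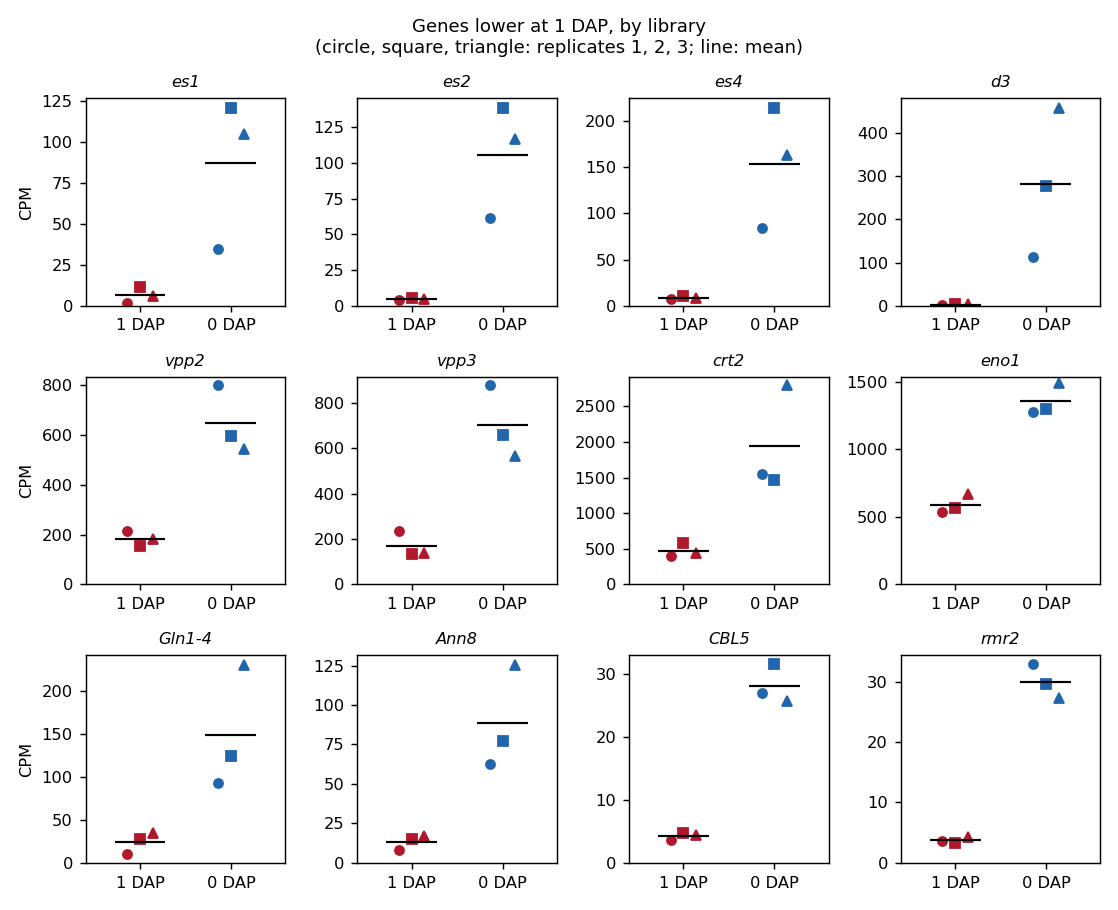
CPM of 12 genes called lower at 1 DAP, one panel each, with 1 DAP on the left and 0 DAP on the right, symbols for replicates 1 to 3 and a line at the mean. All 3 libraries of 1 DAP lie under all 3 of 0 DAP in each panel; es1, es2, es4 and d3 are near the axis at 1 DAP, while vpp2, vpp3, crt2 and eno1 remain above 100 CPM.

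Cell wall genes changed in both directions. The cellulases, which cut wall glucans, rose in 3 of 4 (edgeR called 2): Cel20 had 10.6, 23.6 and 32.2 CPM at 1 DAP, against 2.23, 3.90 and 6.29 CPM at 0 DAP. CSLD1, a cellulose-synthase-like gene, rose and had 5.80, 8.04 and 20.3 CPM at 1 DAP, against 0.540, 0.495 and 0.390 CPM at 0 DAP. Among 14 cellulose and glucan synthases 2 rose and 4 fell, beside 11.5% higher and 14.1% lower over all genes. edgeR called 1 of the falls, and leaving out any 1 library other than replicate 2 of 0 DAP left 2 falls. CesA12 fell and averaged 5.63 ± 0.960 CPM at 1 DAP and 19.1 ± 12.9 CPM at 0 DAP (SD, n = 3). Of 5 expansin and xyloglucan genes limma, edgeR and DESeq2 called 0, and 1 rise had an unadjusted limma p below 0.05. Of genes of later endosperm tissues, 0 of 14 basal transfer layer genes and 0 of 5 embryo-surrounding genes passed the filter. Of 12 aleurone and storage genes 7 passed it, with 1 rise and 1 fall. dek1, needed for aleurone identity in maize, rose and had 37.5, 24.9 and 23.4 CPM at 1 DAP, against 13.1, 13.7 and 13.3 CPM at 0 DAP. gz27, a zein gene, fell and had 0, 0.0288 and 0.0726 CPM at 1 DAP, against 1.26, 5.57 and 5.22 CPM at 0 DAP. The storage-protein regulator pbf1 (GRMZM2G146267) had 103, 72.1 and 49.0 CPM at 1 DAP, against 137, 60.1 and 65.8 CPM at 0 DAP, which overlapped and was not called.

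Some genes were close to absent at one stage. A total of 24 genes were below 0.5 CPM in all 3 libraries of 0 DAP and at least 5 CPM in all 3 of 1 DAP, and 11 showed the opposite. All were called. Of the 24, the named ones were AUX1, given above, and sfp5, which had 7.70, 9.38 and 15.3 CPM at 1 DAP, against 0.111, 0.124 and 0.244 CPM at 0 DAP. Of the 11, they were CPPS2, given above, and me (GRMZM2G118770), which had 0.446, 0.404 and 0.236 CPM at 1 DAP, against 6.03, 6.35 and 7.29 CPM at 0 DAP. Genes without a name had the highest means of both kinds. GRMZM2G373091 averaged 38.7 CPM at 1 DAP against 0.0165 CPM at 0 DAP, and GRMZM2G083190 averaged 0.0493 CPM at 1 DAP against 32.0 CPM at 0 DAP. Outside this rule, GRMZM2G124026 averaged 70.8 CPM at 1 DAP against 0.371 CPM at 0 DAP, and GRMZM2G021051 averaged 3.34 CPM at 1 DAP against 277 CPM at 0 DAP.

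Later stages of the table show what followed for these genes, as means of 3 libraries with no test. Yucca3, at 889 CPM on day 1, averaged 7549, 1950 and 2495 CPM at 2, 3 and 4 DAP. fie1 went on to 119.6, 99.2 and 82.1 CPM, and met5 to 299, 205 and 124 CPM. HAK5 and rop6 were lower again at the next 3 stages, with 1.38, 0.544 and 1.16 CPM for HAK5 and 3.81, 2.08 and 5.61 CPM for rop6, which averaged 45.3 CPM in the embryo of 4 DAP. es2 and es4 were under 0.05 CPM at 2, 3 and 4 DAP. cystatin8 and thi1-2 came back, at 46.6 and 37.6 CPM at 2 DAP. In the same fit limma called 6539 of the 31783 genes fitted between 2 and 1 DAP, 837 between 3 and 2 DAP and 792 between 4 and 3 DAP. These comparisons share libraries with each other. Such counts also depend on spread and scaling and are no measure of pace. The 6937 calls of the first day were counted over 27169 genes.

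**Figure D5:**
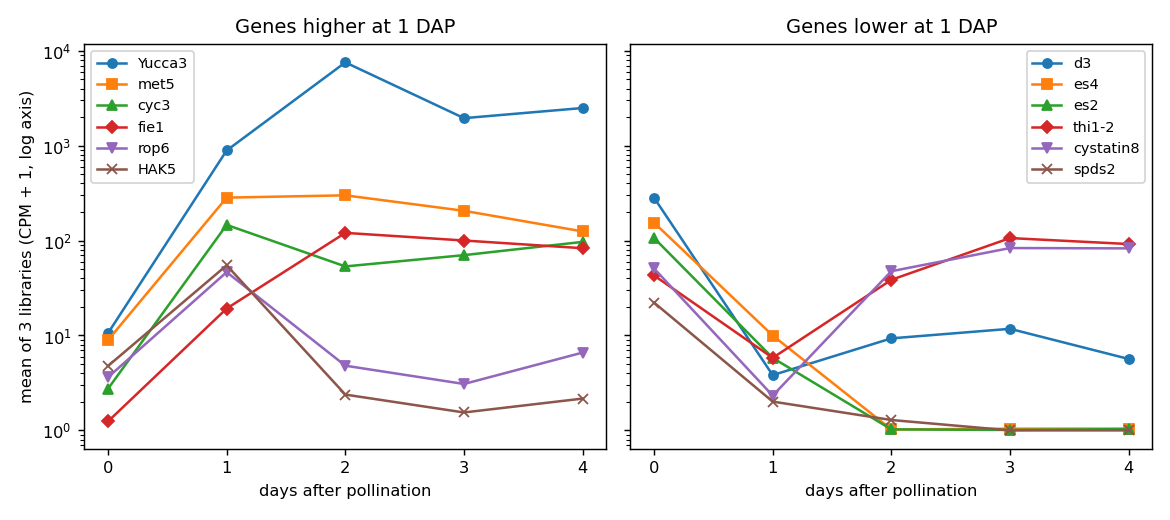
Mean CPM of 3 libraries (CPM + 1, log axis) from 0 to 4 DAP for 6 genes higher at 1 DAP (left) and 6 lower at 1 DAP (right). HAK5 and rop6 peak at 1 DAP, Yucca3 and fie1 peak at 2 DAP, and cystatin8 and thi1-2 dip at 1 DAP while es2 and es4 reach the bottom of the axis from 2 DAP.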

How the data were processed

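Laser-captured maize B73 tissue was measured in 18 libraries (endosperm of 0 to 4 DAP and embryo of 4 DAP, 3 each). The authors deposited a table of signal per gene in normalized reads (CPM). Per the submitters' processing notes, the tools were edgeR, bedtools 2.17.0, TopHat2 2.0.9 and Trimmomatic, in no stated role, on B73 RefGen_v3. How strand and shared reads were handled was not given in the sources used here. Values step by whole reads (100% whole within 0.001), so reads were recovered for the count tests; the table was planned for as CPM and is treated as a normalized signal.

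limma 3.58.1 (trend) was fitted to log2(CPM + 1) over all 18 libraries, 1 mean per group, for the 31783 genes with 1 CPM in at least 3 libraries, with Benjamini-Hochberg adjustment over them and calls at 0.05. Alternatives were edgeR 4.0.16, DESeq2 1.42.0 (R 4.3.3) and other pseudocounts, filters, scalings and left-out libraries. The fit was also run on simulated counts with the same spread setting for every gene and no replicate effect. That run cannot show how the calls behave in these libraries. Deviations from the stage means correlated at 0.52, 0.244 and 0.505 between same-numbered libraries of the 2 stages, and at -0.475 to 0.169 between differently numbered ones. What same-numbered libraries share was not tested. The reported calls, SE and p-values come from the fit without the replicate number, with 6937 calls against 10267 with it as a block. Floors of 3 reads cover counting error only. Named genes are the 12 largest rises and falls called by limma and edgeR with no overlap and at least 10 CPM, the 5 most abundant per stage, up to 4 called members per list by adjusted p with those needed to describe the calls, and genes below 0.5 CPM at one stage and at 5 CPM at the other. Symbols come from RefSeq (Zm-B73-REFERENCE-NAM-5.0) and matched 14444 of 38300 IDs. Of the 27169 genes described, 1676 had a name beyond an identifier. Lists were drawn from symbols and synonyms, so each holds only the named part of its family. Members and gene lists were chosen with earlier results of these data known.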

Additional observations from a re-analysis of the deposited data

How the results depend on the processing

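Over all genes, 1669 of the 3114 rises and 1652 of the 3823 falls were called under every alternative that tested them. The 34 genes named for the largest changes, abundance or absence at one stage were mostly chosen for being called by limma and edgeR, which largely fixes their stability: of their 578 values under 17 alternatives, 574 kept their call and direction and 4 newly passed. Many genes named within lists lost their call, such as EBE-2, PIN10a and gln1-3. The 3823 falls became 2494 by edgeR and 2475 in the 6 libraries alone, which gave 4646 calls against 6937 in the reported fit. The 876 changes of at least 4-fold became 1756 by DESeq2, 1633 by edgeR, 1573 with a pseudocount of 0.25 and 309 with one of 5. The causes were not tested. With the replicate number as a block 10267 genes were called, 4583 higher and 5684 lower. Leaving out 1 library gave 5282 to 6428 calls. In replicate 1 of 1 DAP, with 7688120 reads, 1 read is worth 0.112 CPM, which sets the step of low values there.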
